A study of Mus musculus with 8 samples.

Results

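Chromatin accessibility was described at 10 genes of the transforming growth factor beta (TGF-β) and activin pathway in mouse hepatocytes during liver regeneration. The genes were the activin subunit genes Inhba, Inhbc and Inhbe, the activin antagonist gene Fst, the receptor genes Tgfbr1 and Tgfbr2, the signal transducer genes Smad2 and Smad3, and the feedback inhibitor genes Smad7 and Skil. They were taken by name from 21938 protein-coding genes. Accessible intervals were assigned to a gene if they overlapped its body or the 10 kb on either side. An interval within 1 kb of an annotated start site of the gene was called its promoter interval, and the others were called distal. Distances below run from the summit of a region to the nearest annotated start site of the gene, which can be an internal one. The 8 libraries together held 315767 merged regions, of which 217 belonged to the 10 genes, 14 as promoter and 203 as distal regions.

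Ligands of the TGF-β family bind paired type I and type II receptors on the cell surface, and the activated type I receptor phosphorylates SMAD2 and SMAD3, which enter the nucleus with SMAD4 and act on target genes. TGF-β and activin are both known for restraining hepatocyte proliferation, and follistatin, the product of Fst, binds activin and blocks it. SMAD7 competes for the type I receptor and SKIL (SnoN) represses SMAD-driven transcription, so both act as brakes on the pathway.

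The assay was bulk ATAC-Seq, which reads out open DNA as the sites that Tn5 transposase cuts and tags. Hepatocytes were isolated by collagenase perfusion from mice labelled as strain C57BL/6 (C57BL/6J males in the study's methods), 10-12 weeks old and kept on a normal diet, either from undamaged liver (0 h) or at 48, 72 or 96 h after partial hepatectomy (PHx), an operation that takes out part of the liver. Each of the 4 time points had 2 libraries. The study's methods give a slightly younger age at surgery than the labels do. No sham-operated group is among these libraries, so the surgery itself and the regrowth that follows it cannot be told apart. The labels number the libraries of a time point as replicates without tying them to animals, so the tests measure the spread between these libraries. The deposited peak list of 72 h replicate 2 was named after a different pattern from the other 7, and each count was also made without it.

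The lists held 105206 to 154577 distinct intervals per library, and 89 to 119 of them lay at the 10 genes. Within each library the intervals were ranked by the peak caller's −log10 p, so that rank 1 is the strongest interval, and a rank is a position in that library's list and not a count of reads. Depth is unknown. The −log10 p at rank 50000 ranged from 8.05 to 15.2, lowest in both 48 h libraries and 96 h replicate 2, so equal ranks did not stand for equal significance. All 8 hepatocyte marker genes (Alb, Apoa1, Apob, Ttr, Hnf4a, Cps1, Fgb and Tat) had a promoter interval in both 0 h libraries. After PHx 4 to 8 of them were listed per library, and 4 of the 8 (Alb, Ttr, Fgb and Tat) ranked weaker in all 6 PHx libraries than at 0 h. Promoters of 4 lymphocyte markers were listed in no library and those of 6 Kupffer cell markers in at most 1 per library. Liver endothelial markers were listed at 1 to 4 of 6 promoters per library, with most of them in 48 h replicate 2 and 96 h replicate 1. Stellate cell markers were listed at 2 to 5 of 6 and biliary markers at 2 to 4 of 5. Of these, Kdr (endothelial), Lrat and Reln (stellate) and Epcam and Sox9 (biliary) were in all 8 libraries. In bulk samples, fewer cells of a type and less open chromatin per cell cannot be told apart, and the part of these other cells in the results below was not tested.

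All 10 genes had a promoter interval in all 8 libraries, as did 60.3% of protein-coding genes. The promoters spanned a wide range of ranks. By median rank over the 8 libraries the order was Inhba, Smad3, Skil, Tgfbr1, Smad7, Smad2, Tgfbr2, Fst, Inhbc and Inhbe. Inhba, which encodes the activin A subunit, had the 374th strongest promoter of all protein-coding genes (the top 1.7%), and Inhbe the 10056th (the top 45.8%). The ranges of neighbours in this order overlapped in all 9 adjacent pairs. The largest step lay between Smad2 and Tgfbr2, whose median ranks were 5022 and 12691, and Smad2 ranked ahead of Tgfbr2 in 8 of 8 libraries. In 7 of 8 libraries each of the first 6 promoters ranked ahead of each of the last 4, the exception being 48 h replicate 2, where Fst at rank 6428 stood just ahead of Smad7 at 6459. The cut between them was placed at the largest step in these same libraries, so this agreement was partly built in.

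**Figure D1:**
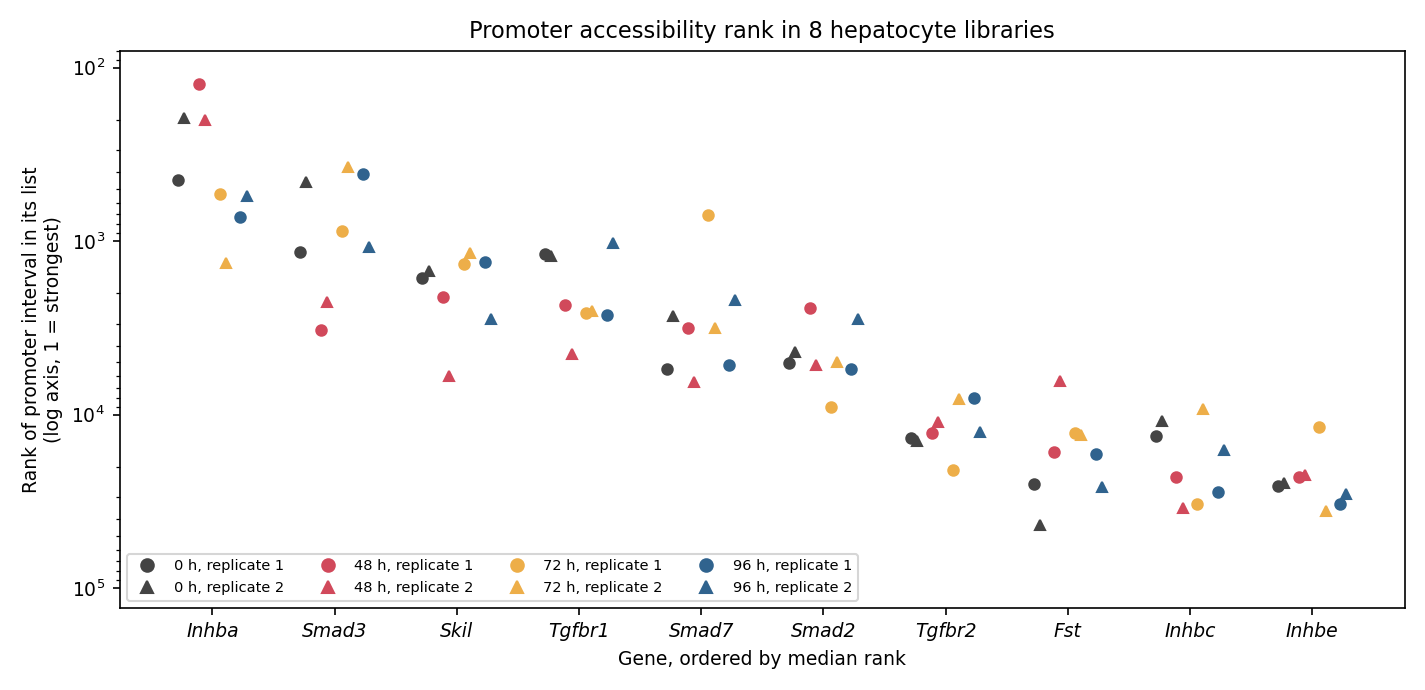
Rank of the promoter interval of each gene (vertical log axis, strongest at the top) in each of the 8 libraries, with the 4 time points side by side in colour and replicates by symbol. Inhba lies between ranks 125 and 1344 and Inhbe between 11842 and 36115, and for no gene do the 6 PHx libraries all fall on 1 side of both 0 h libraries.

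Groups were set side by side by asking whether both libraries of a time point ranked weaker, or both stronger, than both 0 h libraries. At 48 h, 4 of the 10 promoters were weaker than at 0 h by this measure and 3 were stronger, beside 26.4% and 16.3% of the 15515 protein-coding promoters listed in at least 2 libraries. At 72 h, 2 were weaker and 2 stronger, beside 28.8% and 16.4%. At 96 h, 3 were weaker and 1 stronger, beside 18.2% and 14.2%. No promoter ranked weaker, and none stronger, in all 6 PHx libraries than in both 0 h libraries, where 7.1% and 4.16% of all promoters did. An exact two-sided permutation test cannot go below p = 0.333 with 2 libraries against 2, nor below p = 0.0357 with 2 against 6, and these counts are read beside the shares with no test. The 3 time points share the same 0 h libraries, and their counts are not independent of each other.

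Among the ligand genes, the Inhba promoter (chromosome 13, with its summit in UTR sequence 525 bp inside the start site) ranked 447 and 195 in the 0 h libraries, 125 and 200 after 48 h, 536 and 1344 after 72 h and 730 and 551 after 96 h. Both 72 h and both 96 h libraries were thus weaker than the 0 h libraries, while the 48 h libraries overlapped them. Its fold enrichment over local background stayed between 12.95 and 17.51 in the 8 libraries, and ranked by fold enrichment the 72 h and 96 h separations ended and both 48 h libraries were stronger than 0 h, as they also were by percentile. In the limma fit on log2 fold enrichment the 48 h minus 0 h difference was 0.38 (SE 0.25, adjusted p = 0.650).

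Inhbc and Inhbe encode the activin C and E subunits, which are made mainly in liver, and the genes are neighbours on chromosome 10. The Inhbc promoter ranked 13300 and 10947 in the 0 h libraries, 22761 and 34755 after 48 h, 32930 and 9256 after 72 h and 27957 and 16062 after 96 h. It was weaker at 48 h and at 96 h, and the 72 h libraries fell on either side of 0 h. Its fold enrichment was 9.63 and 10.45 at 0 h and 5.95 and 4.69 at 48 h, where the median of whole lists was lower too. Ranked by fold enrichment within each list, the 48 h libraries were still weaker than 0 h, while those of 96 h overlapped 0 h. The limma difference at 48 h was -0.53 (95% interval -1.19 to 0.13, adjusted p = 0.598).

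The Inhbe promoter ranked 25907 and 24906 in the 0 h libraries, 22799 and 22390 after 48 h, 11842 and 36115 after 72 h and 32742 and 28524 after 96 h. It was thus slightly stronger at 48 h and weaker at 96 h. The rank came from either of a pair of regions, whose summits lay 344 bp inside the start site and at -1350 bp from it. The inner region alone ranked 25907 and 44297 in the 0 h libraries and 22799 and 22390 after 48 h, with a limma difference of 0.47 (adjusted p = 0.625). The 96 h libraries overlapped those of 0 h by percentile and with a promoter window of 500 bp, and ranked by fold enrichment the promoter's groups overlapped at each time.

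Fst, on chromosome 13, also had a pair of promoter regions. The region over the start site (chr13:114458303-114459348, coding exon at its summit) ranked 24994 and 43586 in the 0 h libraries, 16476 and 6428 after 48 h, 20401 and 13092 after 72 h and 16797 and 26198 after 96 h. Both 48 h and both 72 h libraries were stronger than 0 h, and 1 of the 96 h libraries fell within the 0 h range. Ranked by fold enrichment, the Fst promoter, taken in each library as the better interval of either region, was stronger in all 6 PHx libraries. For the region over the start site alone this was not examined. The limma difference in log2 fold enrichment was 0.72 at 48 h (SE 0.24, 95% interval 0.20 to 1.25, unadjusted p = 0.0109, adjusted p = 0.373) and 0.48 for the PHx mean (unadjusted p = 0.0327, adjusted p = 0.601). The other region, with its summit in the intron 1199 bp inside the start site, reached into the 1 kb window in some libraries only, so that not all of its ranks entered the promoter rank. It ranked 13665 and 8232 in the 0 h libraries and 7555 and 13260 after 48 h, with 48 h and 0 h overlapping.

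Of the receptor genes, Tgfbr1 encodes the type I receptor that phosphorylates the SMADs. Its promoter on chromosome 4 ranked 1184 and 1221 in the 0 h libraries, 2342 and 4491 after 48 h, 2613 and 2536 after 72 h and 2680 and 1031 after 96 h. The 48 h and 72 h libraries were all weaker than 0 h, and 96 h replicate 2 was the strongest of the 8. The deposited fold enrichment was 14.64 and 13.92 at 0 h and 10.73 and 9.57 at 48 h, yet ranked by fold enrichment the 48 h libraries overlapped those of 0 h, and the limma difference after quantile normalisation was -0.06 (95% interval -0.61 to 0.49, adjusted p = 0.961).

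Tgfbr2 encodes the type II receptor that binds TGF-β first. Its promoter on chromosome 9 ranked 13612 and 14223 in the 0 h libraries, 12725 and 11108 after 48 h, 20759 and 8115 after 72 h and 8060 and 12657 after 96 h. It was stronger at 48 h and 96 h, by small steps (at 96 h not when ranked by fold enrichment, and at 48 h not by percentile), and the 72 h libraries lay at the weakest and near the strongest end of its range. At 48 h limma gave a difference of 0.22 (adjusted p = 0.829).

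The transducer genes differed from each other. The Smad3 promoter on chromosome 9 ranked 1149 and 454 in the 0 h libraries, 3272 and 2235 after 48 h, 880 and 373 after 72 h and 410 and 1078 after 96 h. Both 48 h libraries were the weakest of the 8 and the later libraries overlapped those of 0 h. The 48 h separation held under every alternative ranking and promoter window tried. Fold enrichments were 8.82 and 9.62 at 48 h against 12.67 and 15.12 at 0 h, where the median of whole lists was higher too. The limma difference was -0.15 (95% interval -0.66 to 0.36, adjusted p = 0.882). Leaving out the first 0 h library gave -0.29, and leaving out the second -0.014. Over all alternatives the value ran from -0.61 to -0.014.

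The Smad2 promoter on chromosome 18 ranked 5069 and 4368 in the 0 h libraries, 2437 and 5147 after 48 h, 8998 and 4975 after 72 h and 5486 and 2818 after 96 h. The groups overlapped at each time by rank. By percentile the promoter was stronger at 48 h and 96 h, and ranked by fold enrichment it was stronger at 48 h. At 48 h limma gave a difference of 0.31 (adjusted p = 0.724).

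Of the inhibitor genes, the Smad7 promoter on chromosome 18 ranked 5432 and 2695 in the 0 h libraries, 3187 and 6459 after 48 h, 703 and 3152 after 72 h and 5171 and 2189 after 96 h. Its groups also overlapped at each time, with 72 h replicate 1 far ahead of the other libraries, though by percentile it was stronger at 72 h. The Skil promoter on chromosome 3 ranked 1628 and 1487 in the 0 h libraries, 2105 and 5996 after 48 h, 1361 and 1175 after 72 h and 1326 and 2812 after 96 h. It was weaker at 48 h, stronger at 72 h and on both sides of 0 h at 96 h, and the 48 h libraries overlapped those of 0 h when ranked by fold enrichment. The limma differences at 48 h were 0.04 for Smad7 (adjusted p = 0.978) and -0.11 for Skil (adjusted p = 0.923).

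The distal landscape was uneven across the genes. Of the 203 distal regions, 97 were listed in 1 library only and 106 in at least 2, of which 66 lay in introns, 6 in exons or UTRs and 34 outside the gene. Regions shared by the neighbours Inhbc and Inhbe were placed there by Inhbc only. Placed by Inhbe, 4 of its 8 distal regions lay in its exons or UTRs. Of the 106, 34 (32.1%) were listed in all 8 libraries, beside 35.0% of the 101777 distal regions of all protein-coding genes. Smad3, a long gene, had 26 of them, Smad2 20 and Tgfbr2 16, while Inhba had 4 and Fst 6. None of the 8 distal regions of Tgfbr1 was listed in all 8 libraries, against 6 of the 8 of Smad7. At 2 of the 106 the region held the promoter of another gene, R3hdm2 or Gli1.

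**Figure D2:**
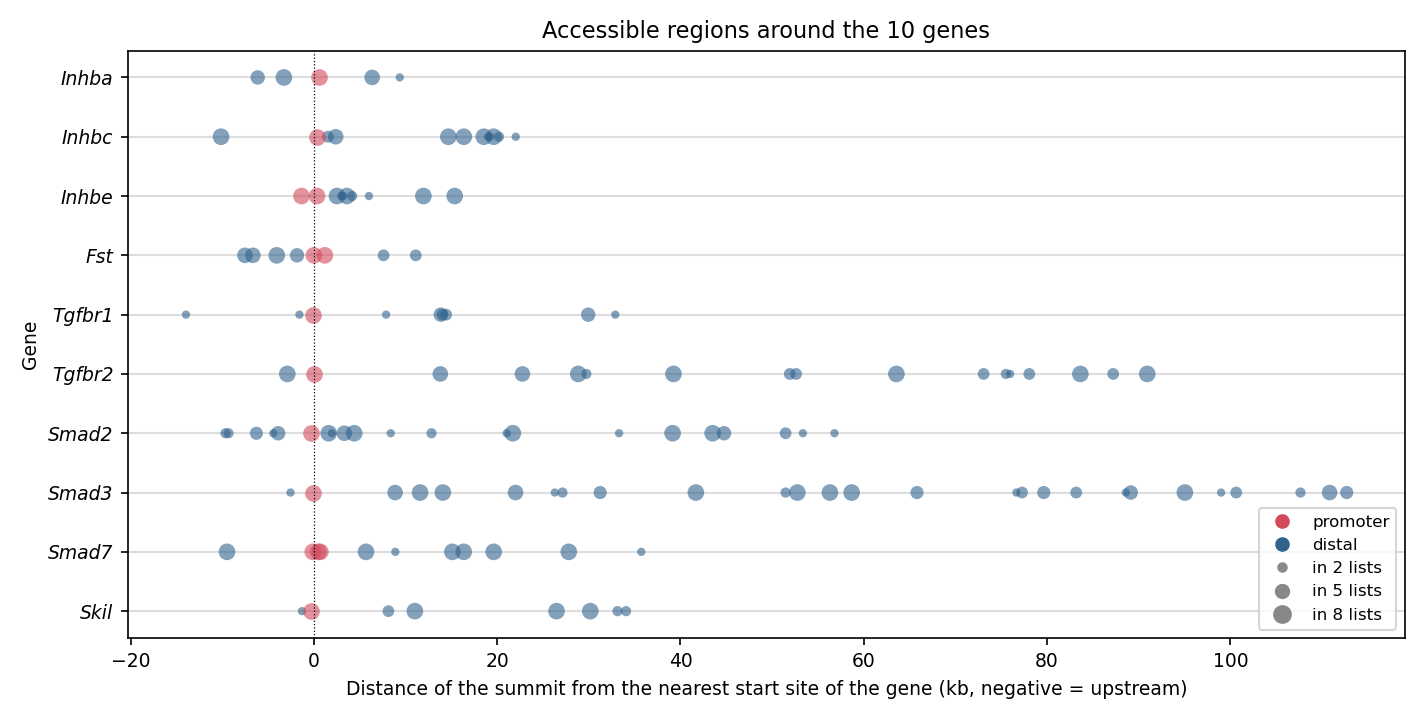
Distance in kb from the nearest start site of the gene (negative is upstream) of each promoter (red) and distal (blue) region listed in at least 2 libraries, with the size of the symbol giving the number of lists. Smad3, Smad2 and Tgfbr2, with 26, 20 and 16 distal regions, carry them along the gene, and Inhba has 4 distal regions, 1 of them in all 8 lists.

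The strongest distal region of each gene was taken as that with the best median rank. For Smad7 it lay in an intron 15113 bp inside the start site, and it ranked 3587 and 6941 in the 0 h libraries, 4029 and 4238 after 48 h, 3749 and 2917 after 72 h and 8976 and 4401 after 96 h, so it stood about as high as the gene's promoter and its groups overlapped at 48 h (both 48 h libraries were stronger when ranked by fold enrichment). For Inhbe it lay outside the gene, 15367 bp past the start site and ranked 8322 and 14521 in the 0 h libraries, 2583 and 3554 after 48 h, 3452 and 4594 after 72 h and 3649 and 8984 after 96 h. There all PHx libraries but 96 h replicate 2 were ahead of both 0 h libraries (all 6 when ranked by fold enrichment), and the limma difference at 48 h was 0.46 (adjusted p = 0.554).

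For Tgfbr2 the strongest was an intronic region 63564 bp inside the start site, ranked between 8966 and 19700, with both 48 h libraries (14431 and 19671) weaker than 0 h (12270 and 8966). The 96 h libraries of this region (12550 and 19700) were weaker too, with an overlap by percentile. For Smad3 it was an intronic region 14071 bp inside the start site, ranked between 8826 and 32874. For Smad2 it was an intronic region 4401 bp from an internal start site, ranked between 23639 and 53850. In both, the 48 h libraries overlapped those of 0 h, and the Smad2 region was stronger at 96 h (29794 and 23639, against 33756 and 29923 at 0 h).

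For Tgfbr1 it was an intronic region at 13847 bp, which 6 libraries listed, and it ranked 56764 in 0 h replicate 1 and 22339 and 32191 after 48 h. It was unlisted in 0 h replicate 2 and 96 h replicate 2. For Inhbc the strongest was the R3hdm2 promoter region. The strongest distal regions of Inhba, Fst and Skil are described below.

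Of the 106 distal regions, 20 were weaker and 14 stronger at 48 h than at 0 h, beside 16.2% and 11.9% of all distal regions. At 72 h, 18 were weaker and 15 stronger, beside 13.9% and 17.4%, and at 96 h 18 were weaker and 14 stronger, beside 13.5% and 12.0%. In 7 regions all 6 PHx libraries were weaker than both 0 h libraries and in 3 all were stronger, beside 4.74% and 2.11%. As shares of the 106, the counts at 48 h were 18.9% and 13.2%. With percentiles in place of ranks, which shifts long lists upwards, the 72 h split was 9 weaker and 28 stronger, beside 6.37% and 27.6% of all distal regions.

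The sequences of 5 distal regions are shown because these regions carry the differences described next, 200 bases around the summit on the + strand of GRCm38.p6, with matches to the SMAD-binding letters CAGAC or their reverse complement GTCTG in capitals. The Inhba window is chr13:16008477-16008676, the Skil window chr3:31107752-31107951, the Smad3 window chr9:63705138-63705337, the Tgfbr2 window chr9:116161364-116161563 and the Fst window chr13:114462901-114463100.
Inhba, -3274 bp: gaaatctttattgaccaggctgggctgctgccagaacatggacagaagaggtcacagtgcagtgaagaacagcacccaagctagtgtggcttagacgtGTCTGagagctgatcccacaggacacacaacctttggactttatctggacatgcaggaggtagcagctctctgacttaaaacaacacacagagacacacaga
Skil, intron: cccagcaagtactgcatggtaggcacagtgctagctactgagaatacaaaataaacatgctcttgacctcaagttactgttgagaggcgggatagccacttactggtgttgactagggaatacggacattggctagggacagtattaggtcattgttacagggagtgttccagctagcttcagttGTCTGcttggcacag
Smad3, intron: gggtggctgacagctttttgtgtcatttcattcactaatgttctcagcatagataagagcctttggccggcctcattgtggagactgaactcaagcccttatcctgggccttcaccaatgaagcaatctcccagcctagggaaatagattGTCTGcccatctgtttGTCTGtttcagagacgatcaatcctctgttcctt
Tgfbr2, intron: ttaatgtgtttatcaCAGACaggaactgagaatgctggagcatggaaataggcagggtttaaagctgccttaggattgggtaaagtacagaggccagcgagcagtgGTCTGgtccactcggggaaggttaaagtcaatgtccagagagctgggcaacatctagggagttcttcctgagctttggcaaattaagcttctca
Fst, -4050 bp: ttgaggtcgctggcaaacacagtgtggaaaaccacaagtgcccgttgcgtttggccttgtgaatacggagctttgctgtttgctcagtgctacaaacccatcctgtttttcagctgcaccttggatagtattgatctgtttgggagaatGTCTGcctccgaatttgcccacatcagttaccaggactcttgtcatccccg

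These windows held 1 or 2 matches each. Over the 200-base windows of all 106 distal regions, CAGAC was found on either strand in 45.3%, beside 43.0% of the windows of all distal regions. The SMAD palindrome GTCTAGAC was in 0 of the 106 (0.191% of all), the AP-1 letters TGANTCA in 4.72% (8.15%), the FOXA letters TGTTTAC in 4.72% (4.58%), the C/EBP letters TTGCNNAA in 10.4% (11.8%) and the HNF4 letters CAAAGTCCA in 0 (1.13%). The 2 SMAD motifs share the letters AGAC, and a match describes letters and not a bound site.

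Upstream of Inhba, the region at -3274 bp from the start site (chr13:16008422-16008743) ranked 33076 and 14943 in the 0 h libraries, 52440 and 57190 after 48 h, 67008 and 78265 after 72 h and 67864 and 45471 after 96 h. All 6 PHx libraries were weaker than both 0 h libraries, and this held with percentiles, with ranks by fold enrichment, with the 50000 strongest intervals and at q under 0.05. The limma difference was -0.77 at 72 h (unadjusted p = 0.0116, adjusted p = 0.702) and -0.60 for the PHx mean (SE 0.21, 95% interval -1.07 to -0.14, unadjusted p = 0.0144, adjusted p = 0.535). The region was weaker after PHx while the promoter of the same gene stayed within rank 1344 of each list.

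In Skil, the intronic region 11019 bp inside the start site (chr3:31107540-31108244) went the other way. It ranked 14848 and 15671 in the 0 h libraries, 4504 and 8445 after 48 h, 12412 and 11319 after 72 h and 11900 and 8081 after 96 h, so all 6 PHx libraries were stronger, under each of the same rankings. It was stronger at 48 h, when the Skil promoter ranked weaker. The limma difference at 48 h was 0.32 (95% interval -0.18 to 0.83, adjusted p = 0.693).

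In Smad3, an intronic region 52756 bp inside the start site (chr9:63704964-63705806) ranked 79465 and 73732 in the 0 h libraries, 27559 and 69770 after 48 h, 27605 and 50643 after 72 h and 67989 and 38795 after 96 h. All 6 PHx libraries were stronger. Ranked by fold enrichment only the 72 h libraries stayed apart from 0 h, and among the 50000 strongest intervals the groups overlapped at each time. The limma difference was 0.70 at 72 h (95% interval -0.10 to 1.49, adjusted p = 0.827). A weak region at -2551 bp from the Smad3 start site was listed at 98993 and 49647 at 0 h and in none of the 6 PHx libraries.

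Smad7 held a region of each kind. The intronic region at 19623 bp ranked 27176 and 26339 in the 0 h libraries, 44683 and 53608 after 48 h, 31600 and 27730 after 72 h and 41346 and 42103 after 96 h, weaker in all 6 PHx libraries and nearest to 0 h at 72 h, where the groups overlapped by percentile. The region at 27815 bp, past the end of the gene, ranked 81189 and 65810 in the 0 h libraries, 36280 and 40689 after 48 h, 20276 and 52833 after 72 h and 63651 and 59063 after 96 h. It was stronger in all 6 PHx libraries, though ranked by fold enrichment only at 48 h and 72 h, and among the 50000 strongest intervals only at 48 h, with limma differences of 0.80 at 48 h (SE 0.31, unadjusted p = 0.0235, adjusted p = 0.430), 0.82 at 72 h (unadjusted p = 0.0216, adjusted p = 0.735) and 0.65 for the PHx mean (unadjusted p = 0.0241, adjusted p = 0.582). Leaving out 72 h replicate 1 gave 0.32 for the 72 h value, and leaving out replicate 2 gave 1.31.

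In Tgfbr2, an intronic region 13801 bp inside the start site (chr9:116160857-116161582) ranked 56764 and 50630 at 0 h, 83683 in 48 h replicate 1, 76200 and 84478 at 72 h and 76179 and 89701 at 96 h, and was unlisted in 48 h replicate 2. At the Inhbc and Inhbe genes, the R3hdm2 promoter region ranked 4622 and 3460 in the 0 h libraries, 7115 and 10920 after 48 h, 5316 and 4861 after 72 h and 6695 and 7015 after 96 h. A pair of weaker regions near the end of Inhbe was listed at 0 h and, after PHx, only at 1 of them in 96 h replicate 1. Each of these was weaker in all 6 PHx libraries, although the R3hdm2 region overlapped 0 h at 72 h by percentile and at each time when ranked by fold enrichment, and the other 3, like the weak region upstream of Smad3, rank beyond the 50000 strongest intervals in most libraries and were not apart among those. At q under 0.05, 1 of the pair near the end of Inhbe also overlapped 0 h at each time.

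**Figure D3:**
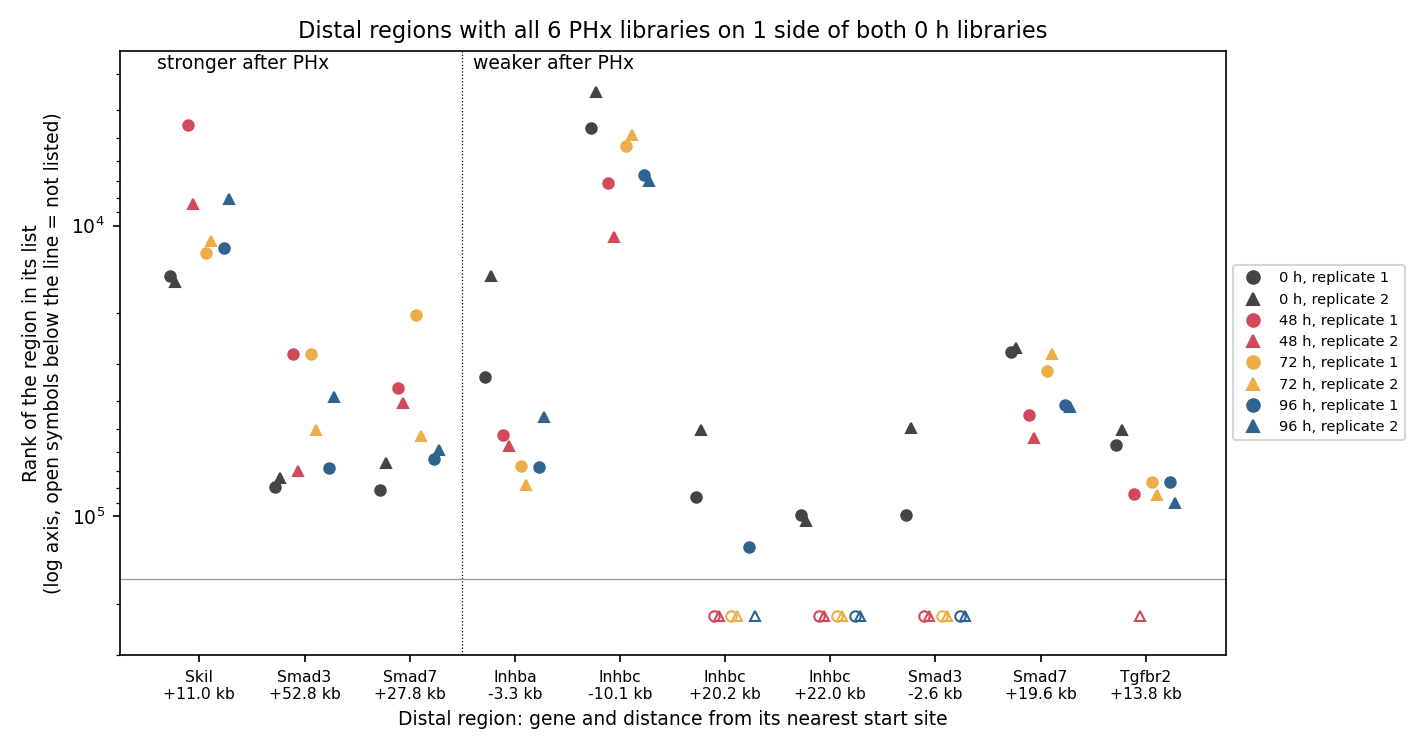
Rank in each library (vertical log axis, strongest at the top, open symbols for libraries that did not list the region) of the 10 distal regions in which all 6 PHx libraries fell on 1 side of both 0 h libraries, labelled by gene and distance in kb. The 3 on the left were stronger and the 7 on the right weaker after PHx, and 2 of the 3 regions named for Inhbc also belong to the neighbouring Inhbe.

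The limma fit covered the 57473 regions listed in all 8 libraries, 48 of them at the 10 genes. It called 0 regions at an adjusted p under 0.05 in each of the 4 contrasts (0.0% of all tested), at the 10 genes and elsewhere. At an unadjusted p under 0.05 it gave 4 of the 48 at 48 h, 2 at 72 h, 0 at 96 h and 3 for the PHx mean, beside 9.89%, 6.28%, 5.68% and 7.75% of all regions tested. The lowest adjusted p at the 10 genes was 0.360, for the region at -4050 bp from the Fst start site at 48 h.

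That Fst region (chr13:114462684-114463227), the strongest distal region of the gene, ranked 41369 and 23959 in the 0 h libraries, 73891 and 111562 after 48 h, 41682 and 56176 after 72 h and 51227 and 30121 after 96 h. It was weaker at 48 h and at 72 h, and only at 48 h by percentile or when ranked by fold enrichment. The limma difference at 48 h was -0.98 (SE 0.31, 95% interval -1.65 to -0.31, unadjusted p = 0.00753), so at 48 h the Fst start site and its upstream region differed from 0 h in opposite directions, neither of them past the adjusted threshold.

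A region at the end of Smad2, in UTR sequence and 43512 bp from an internal start site of the gene, was named after its values were seen. It ranked 41946 and 38124 in the 0 h libraries, 66620 and 73298 after 48 h, 60200 and 43053 after 72 h and 30593 and 24513 after 96 h, weaker at 48 h and 72 h and stronger at 96 h, with an overlap at 72 h by percentile. For this region limma gave -0.72 at 48 h (unadjusted p = 0.0132, adjusted p = 0.390).

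**Figure D4:**
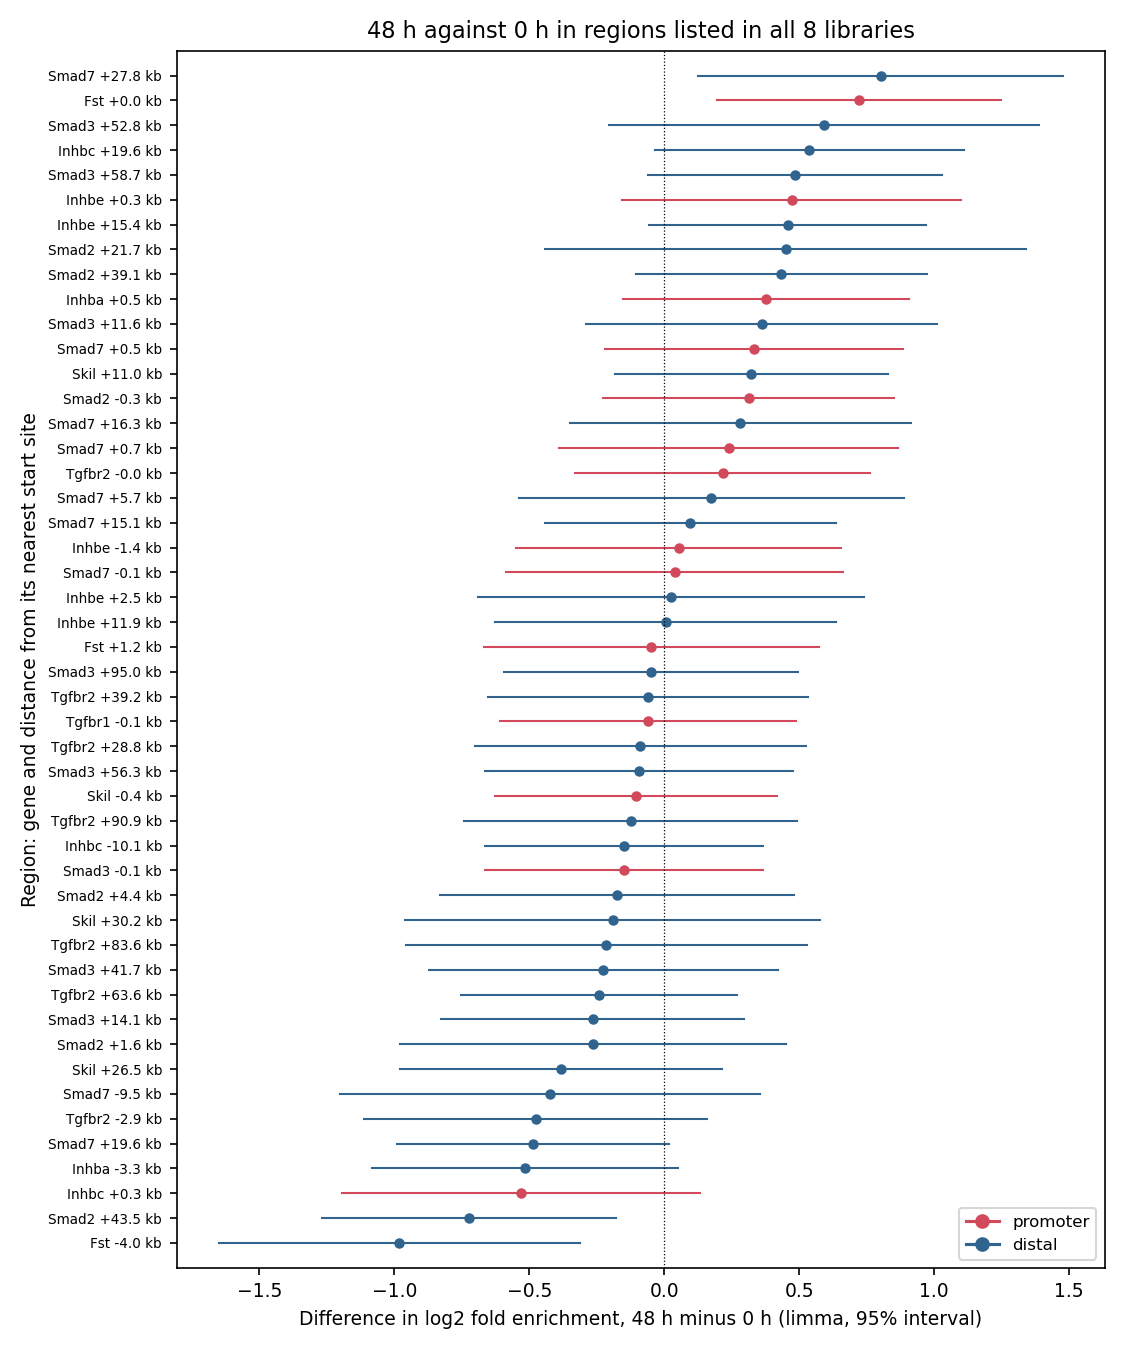
Difference in quantile-normalised log2 fold enrichment, 48 h minus 0 h, with its 95% interval from limma, for the 48 regions at the 10 genes that were listed in all 8 libraries, labelled by gene and distance in kb. The intervals of 4 regions leave out 0, from -0.98 upstream of Fst to 0.80 past the end of Smad7, and none of the adjusted p-values is under 0.360.

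The 38 other pathway genes were read in the same way. Promoters of 37 were listed in some library and of 30 in all 8, and Foxh1 was listed in none. Of the 36 listed in at least 2 libraries, 12 were stronger and 5 weaker at 48 h (33.3% and 13.9%, beside 16.3% and 26.4% of all promoters). At 72 h 11 were stronger and 4 weaker (30.6% and 11.1%, beside 16.4% and 28.8%), and at 96 h 10 and 2 (27.8% and 5.56%, beside 14.2% and 18.2%). All 6 PHx libraries were stronger than 0 h at 4 and weaker at 1, beside 4.16% and 7.1%. Leaving out 1 library moved these last counts to 9 and 5 when it was 0 h replicate 1 (beside 12.7% and 21.3% of all promoters), to 7 and 5 when it was 0 h replicate 2 (beside 8.02% and 14.2%) and to 8 and 3 when it was 96 h replicate 2 (beside 6.02% and 12.6%). The balance at 72 h turned with the measure, since ranks by fold enrichment gave 5 stronger and 7 weaker there, beside 16.2% and 24.4% of all promoters. At 48 h and 96 h it stayed on the stronger side by that measure, with 10 against 4 (beside 19.5% and 18.7%) and 7 against 1 (beside 14.9% and 13.8%).

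By role, 4 of 7 known target genes of the pathway (Ccn2, Tgfbi, Pmepa1 and Cdkn2b) were stronger at 48 h and at 72 h, beside 16.3% and 16.4% of all promoters. None was weaker, beside 26.4% and 28.8%. The share of all promoters stronger at both times together was not counted, and the times share the same 0 h libraries. Ranked by fold enrichment only Cdkn2b of these was stronger at both times, the Ccn2 libraries overlapped 0 h at 48 h and the Tgfbi libraries at 72 h, and Pmepa1 overlapped at 48 h and was weaker at 72 h. Tgfbi also overlapped at both times among the 50000 strongest intervals. Of 8 listed transducers and nuclear regulators 2 were stronger and 3 weaker at 48 h. Of 8 ligand genes 2 were stronger and 1 weaker at 48 h, as of 7 receptor genes, and of 6 extracellular regulators 2 were stronger. These 48 h counts stand beside the same 16.3% stronger and 26.4% weaker of all promoters. Cdkn2b, which encodes the cell cycle inhibitor p15, ranked 3980 and 4466 in the 0 h libraries, 1456 and 1060 after 48 h, 1969 and 2331 after 72 h and 3235 and 3045 after 96 h. It was stronger in all 6 PHx libraries under every alternative ranking and window.

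Inhbb, the gene of the activin B subunit, ranked 23191 and 25908 at 0 h and between 13087 and 18469 after PHx. The promoter of Tgfbr3, the gene of the co-receptor betaglycan, ranked 14666 and 14627 at 0 h and between 8193 and 13440 after PHx, and that of Ltbp1, the gene of a latent TGF-β binding protein, 47782 and 71800 at 0 h and between 27408 and 46195 after PHx. Ranked by fold enrichment, none of these 3 was stronger in all 6 PHx libraries, and they stayed apart from 0 h only at 48 h (Inhbb and Tgfbr3) or 96 h (Ltbp1). Inhbb overlapped 0 h at each time with a promoter window of 500 bp, and Ltbp1 did at 48 h by percentile. Smurf2, the gene of a ubiquitin ligase that acts with SMAD7 on the receptor, ranked 5742 and 3774 at 0 h and between 6224 and 16949 after PHx, and was weaker only at 48 h by percentile and only at 48 h and 72 h when ranked by fold enrichment. Of the 8 hepatocyte marker promoters, 7 were weaker after 48 h, 6 after 72 h and 5 after 96 h, beside 26.4%, 28.8% and 18.2% of all promoters, and 0 were stronger. Of 5 stellate cell promoters listed in at least 2 libraries, 2 were stronger after 48 h, 0 after 72 h and 2 after 96 h, beside 16.3%, 16.4% and 14.2%, and 0 were weaker. Of 4 biliary ones, 1 was weaker after 48 h and after 72 h, and of 4 endothelial ones 1 was stronger after 96 h. The part of these shifts in the pathway counts was not tested.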

How the data were processed

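Bulk ATAC-Seq was measured in 8 libraries of mouse hepatocytes, 2 from undamaged liver (0 h) and 2 at each of the later times (48, 72 and 96 h), grouped by their labels. Per the study's methods, the authors trimmed the reads, mapped them to mm10 with Bowtie2, removed PCR duplicates and called peaks with MACS2. A peak list was deposited for each library. The deposited lists give per peak a score for display, which was not used, a fold enrichment (a ratio to local background), a −log10 p, a −log10 q and a summit. They hold no read counts, so depth is unknown, counting intervals were left out, and a test on reads such as the study's was out of reach. A larger number of biological replicates is described for 0 and 48 h, and further libraries were not analysed here.

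Lines that shared an interval were collapsed to the highest −log10 p and ranked within a library. Intervals of the 8 libraries were merged where they overlapped by 1 bp, with a library's value that of its strongest interval there. A library that did not list a region was placed after all that did. Genes came from GENCODE M21 basic, 0 intervals ended past a chromosome of GRCm38.p6, and sequence was read from that assembly. limma 3.58.1 in R 4.3.3 was fitted to quantile-normalised log2 fold enrichment over the regions in all 8 lists, with Benjamini-Hochberg adjusted p-values over all of them and a threshold of 0.05. The other steps ran in Python 3.11.15. The merging of intervals, the region values, the separation of groups and the limma fit were tested on simulated data. Named were the 10 promoters, each gene's distal region with the best median rank, each region with all 6 PHx libraries on 1 side of 0 h, and other pathway genes whose promoter did the same. Alternatives were percentiles, the 50000 strongest intervals, q under 0.05, ranks by fold enrichment, promoter windows of 500 bp, flanks of 5 and 20 kb, 200 bp around summits, −log10 p or median centring in limma, a replicate block, and leaving out each library. Members, gene lists and rules were chosen with earlier results of these data known.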

Additional observations from a re-analysis of the deposited data

Results flagged for a closer look

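Among the promoters and distal regions of the 10 genes, in 6 places every library of 1 time point ranked on the stronger side of both 0 h libraries and every library of another on the weaker side. In each case the difference between the time points was not tested. The Inhbe promoter ranked 25907 and 24906 in the 0 h libraries, 22799 and 22390 after 48 h (stronger) and 32742 and 28524 at 96 h (weaker). The Skil promoter ranked 1628 and 1487 in the 0 h libraries, 2105 and 5996 after 48 h (weaker) and 1361 and 1175 at 72 h (stronger).

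The other 4 were distal regions. In Smad2, the intronic region 3321 bp from an internal start site ranked 76068 and 80002 in the 0 h libraries, 72551 and 41215 after 48 h (stronger), 89322 and 120533 at 72 h and 82402 in 96 h replicate 1 (weaker), and was unlisted in 96 h replicate 2. The Smad2 region at 43512 bp ranked 41946 and 38124 in the 0 h libraries, 66620 and 73298 after 48 h, 60200 and 43053 at 72 h (weaker) and 30593 and 24513 at 96 h (stronger). In Smad3, the intronic region at 95038 bp ranked 61823 and 62316 in the 0 h libraries, 66732 and 71955 after 48 h (weaker), 38255 and 46061 at 72 h and 55627 and 42123 at 96 h (stronger). The intronic region at 8863 bp in Smad3 ranked 56127 and 57984 in the 0 h libraries, 42063 and 52328 after 48 h (stronger) and 67721 in 96 h replicate 1 (weaker), and was unlisted in 96 h replicate 2.

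Most of these patterns depended on the ranking. With percentiles in place of ranks, the stronger and the weaker side both held for the Skil promoter and the Smad2 region at 43512 bp (there weaker at 48 h only), the Inhbe promoter and the Smad3 region at 8863 bp lost the 96 h side, the Smad3 region at 95038 bp lost the 48 h side, and the Smad2 region at 3321 bp overlapped 0 h at each time. With ranks by fold enrichment, both sides held for both Smad2 regions and the Smad3 region at 95038 bp, the Skil promoter and the Smad3 region at 8863 bp lost the 48 h side, and the Inhbe promoter overlapped 0 h at each time. Among the 50000 strongest intervals, the Smad2 region at 3321 bp and the Smad3 region at 8863 bp overlapped 0 h at each time, and the Smad3 region at 95038 bp was apart only at 72 h. With a promoter window of 500 bp, the Inhbe promoter lost the 96 h side.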

How the results depend on the processing

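The fit called 0 regions at the 10 genes in all 4 contrasts under each alternative, leaving out each library included. With a replicate block it also called 0, with 4, 3, 0 and 3 regions at an unadjusted p under 0.05 for 48 h, 72 h, 96 h and the PHx mean. The replicate numbers did not pair the libraries, with correlations of replicate deviations between -0.055 and 0.125. Counts of promoters moved when ranked by fold enrichment, to 2 weaker and 4 stronger at 48 h (beside 18.7% and 19.5% of all promoters), 1 weaker at 72 h (24.4%), 0 weaker at 96 h (13.8%) and 1 stronger in all PHx libraries (Fst, 4.0%). With percentiles, 4 promoters were stronger at 48 h (19.4%), 3 at 72 h (27.0%) and 2 at 96 h (21.6%), where 2 were weaker (11.4%), and 9 distal regions were weaker and 28 stronger at 72 h (beside 6.37% and 27.6% of all distal regions). Among the 50000 strongest intervals, distal counts were 8 weaker and 6 stronger at 48 h (beside 7.58% and 6.54%), 5 each way at 72 h (6.76% and 6.83%), 5 weaker and 3 stronger at 96 h (6.27% and 5.30%) and 3 weaker and 1 stronger over PHx (2.16% and 1.17%). The cause of these shifts was not tested, beyond the fewer intervals kept in the last case.

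Leaving out 1 library, which makes it easier for groups to lie apart, gave 4 to 6 promoters weaker and 3 to 5 stronger at 48 h, 2 to 5 and 2 to 5 at 72 h, 3 to 5 and 1 to 4 at 96 h, and 0 to 1 each way over PHx. The shares of all promoters moved too, to 26.4% to 43.0% weaker and 16.3% to 32.4% stronger at 48 h, 28.8% to 44.4% and 16.4% to 31.2% at 72 h, 18.2% to 40.7% and 14.2% to 35.4% at 96 h, and 8.03% to 21.3% and 4.82% to 12.7% over PHx. For distal regions it gave 20 to 38 weaker and 14 to 35 stronger at 48 h, 18 to 36 and 15 to 35 at 72 h, 18 to 38 and 14 to 39 at 96 h, and 8 to 25 and 3 to 6 over PHx, beside shares of all distal regions of 16.2% to 32.2% and 11.9% to 30.4%, 13.9% to 30% and 17.4% to 36.0%, 13.5% to 29.9% and 12.0% to 34.5%, and 5.71% to 16.3% and 2.55% to 7.37%. Counts of members moved by over 1.5 times without 0 h replicate 1 or 2 or without a library of the time point compared, and over PHx also without 72 h replicate 1 or 2 (promoters) or 96 h replicate 2. The limma difference at 48 h changed sign when 1 library was left out for 3 promoters, with values of -0.28 to 0.073 for Skil and -0.20 to 0.085 for Tgfbr1 (highest in both without 48 h replicate 2) and -0.14 to 0.21 for Smad7 (below 0 without 0 h replicate 1 or 48 h replicate 1). With −log10 p in place of fold enrichment it was -0.10 for Smad7. With 2 libraries per time point and no read counts, the lists limit what could be told apart.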
